A study of Caenorhabditis elegans with 20 samples.

Results

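Nematodes without progranulin that carried granulin 3 were compared with nematodes without progranulin alone. The 8 libraries were chosen by the strain label, 4 of strain AWK107, pgrn-1(-); granulin 3(+), and 4 of strain CF3050, pgrn-1(-), out of 20 libraries of Caenorhabditis elegans sequenced as total RNA. All genes were compared, and 15737 of the 46778 gene identifiers in the deposited tables passed the filter on low values. Both strains lack pgrn-1, so the comparison asks what differs when 1 of its cleavage products is present and the rest of the protein is not.

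Progranulin is a secreted glycoprotein that reaches the lysosome, where proteases cut it into cysteine-rich peptides called granulins. In humans, loss of a copy of the gene causes frontotemporal dementia, and loss of both copies causes a lysosomal storage disease. The nematode gene pgrn-1 encodes a smaller protein, and its single granulin domains can be expressed one at a time, which is the design used here.

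All animals were adults of day 1 of adulthood, synchronised by egg lay and given no further treatment. The other 3 strains, used here only where stated, were granulin 1 (AWK33) and granulin 2 (AWK43), each in the same pgrn-1(-) background, and the wild type N2. The group label of the AWK107 libraries carries the name AWK33, and the strain label was followed. Granulin 3 is represented by 1 strain, the sources used here give neither the promoter nor the form of its transgene, and no label says that replicate libraries were grown as separate cultures. The p-values therefore measure the spread between these libraries, which may be technical. Letters in the sample names run A to D in granulin 3 (also in granulin 1 and wild type) but E to H in the null (also in granulin 2). If they mark batches, batch and strain cannot be told apart here.

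Depth was 48279370 to 128776517 reads in granulin 3 and 51870116 to 64353087 reads in the null. Ribosomal RNA took 0.450% to 8.39% of reads in granulin 3 and 4.80% to 14.5% in the null, means of 2.76% ± 3.77 and 7.69% ± 4.64 (SD, n = 4 each). Each library was also given a length slope, the slope of its gene levels on transcript length relative to the median library, which is negative where long transcripts are under-represented. Granulin 3 replicates 2 and 3 and null replicate 1 had slopes of -0.42, -0.31 and -0.34, while the other 5 libraries had slopes above 0. Neither property differed between the strains beyond its spread (exact permutation test, two-sided, p = 0.29 for the slope and p = 0.11 for ribosomal RNA, where the smallest p possible is 0.029). Calls of named genes that ended without these 3 libraries are given beside those genes.

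At an adjusted p under 0.05 by limma, 2006 genes were called, 12.7% of those tested. Of these, 1759 were higher in granulin 3 (11.2%) and 247 were lower (1.57%). The median log2 fold change over all genes was 0.07. Levels are given in CPM, the reads of a gene relative to the scaled total of its library, and a fold change is the log2 ratio of granulin 3 over null with its standard error, so that a positive value is higher in granulin 3. The groups did not overlap for 3487 genes, 22.2% of those tested. Without null replicate 2 there were 1114 calls, 958 of them higher, and without null replicate 3 there were 1321. The number of genes lower in granulin 3 moved more. It was 63 without granulin 3 replicate 1, 126 without granulin 3 replicate 3, and 85, 156, 96 and 106 on omission of null replicates 1, 2, 3 and 4 in turn. It was 35 when libraries were scaled by total reads alone, and 38 without the 3 libraries of low length slope. At an unadjusted p under 0.05, 24.3% of genes passed.

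The higher genes were mostly of low level. Of the 4861 genes under 1 CPM over the 8 libraries, 1109 were higher (22.8%) and 32 were lower, whereas of the 10876 genes at 1 CPM or over 650 were higher (5.98%) and 215 lower (1.98%). Of the 1759 higher genes, 184 reached the minimum level for testing in fewer than 4 of the 16 other libraries (beside 513 of all 15737 genes tested), so that they were tested only because granulin 3 held them. The median log2 fold change moved with the level, with 0.69 for genes under 0.3 CPM, 0.20 for genes of 3 to 10 CPM and -0.34 for genes of 100 CPM and over. Transcript length differed too. Among protein-coding genes the median exon length was 1116 bases for the 1643 higher (11.1%), 816 bases for the 231 lower (1.55%) and 1356 bases for all 14861 tested. Lists of low-level genes below are therefore set beside a background that itself leans towards higher values, and no list is called particular from its count. For every list compared with the null below, the shares over all genes are 11.2% higher and 1.57% lower.

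**Figure D1:**
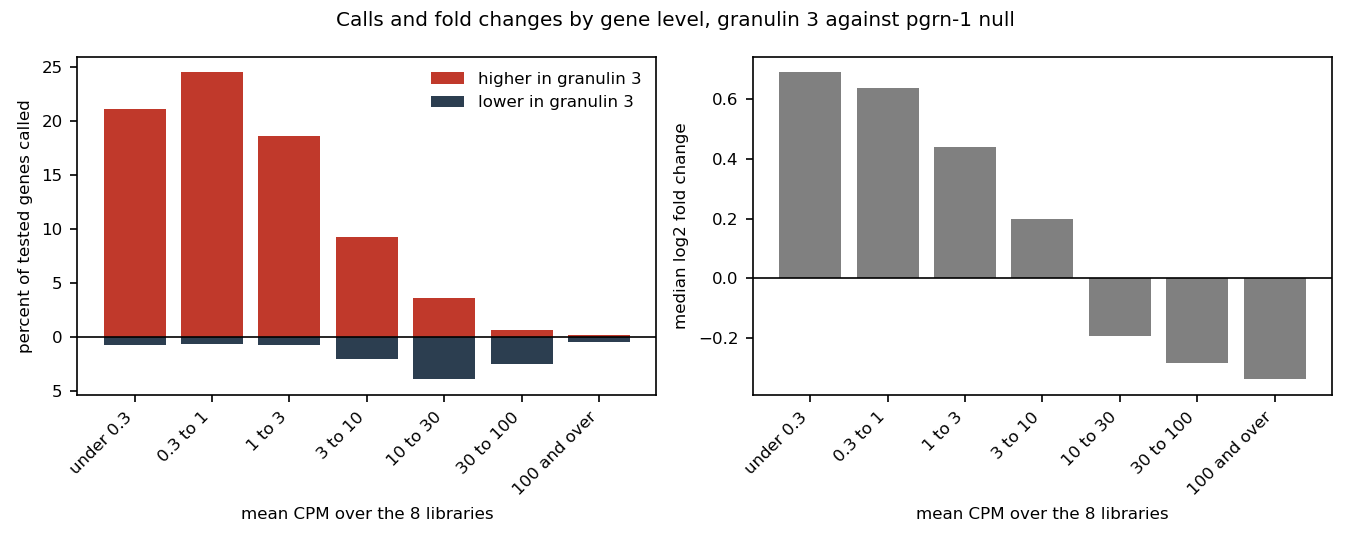
Percent of tested genes called higher or lower in granulin 3 (left, lower drawn below 0) and median log2 fold change of granulin 3 over null (right), by mean level over the 8 libraries in CPM. The share called higher is 21.1% for genes under 0.3 CPM and 0.205% for genes of 100 CPM and over, and the median turns negative from 10 CPM.

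The granulin gene itself was read first. Reads on pgrn-1 (chromosome I, 11701631 to 11703698) amounted to 298, 419, 281 and 392.4 CPM in the granulin 3 libraries, against 0.356, 0.213, 0.159 and 0.0984 CPM in the null libraries. All 4 granulin 3 libraries stood far above all 4 null libraries, in which a few reads remained, and above the wild type mean of 18.8 CPM (log2 fold change 10.63 ± 0.47, adjusted p = 7.8e-12 by limma). The gene total does not show which domain the reads came from. The gene unc-119, a neuronal trafficking gene whose rescue is widely used to select transgenic nematodes, was also higher, with 51.5, 52.9, 52.1 and 43.1 CPM in the granulin 3 libraries, against 9.62, 9.19, 10.7 and 8.23 CPM in the null libraries (log2 fold change 2.40 ± 0.24, adjusted p = 2.8e-06). Granulin 3 replicate 4 was the lowest of its strain and still far above the null, whereas granulin 1 averaged 10.16 CPM, granulin 2 32.3 CPM and wild type 11.6 CPM. The labels do not say whether unc-119 was used to make these strains.

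A further gene shared this pattern with granulin 2. The level of cdf-2 (chromosome X, 12464640 to 12466917), a zinc transporter of the gut granules, was 80.9, 70.6, 64.04 and 61.4 CPM in the granulin 3 libraries, against 2.72, 2.298, 1.99 and 2.15 CPM in the null libraries (log2 fold change 4.90 ± 0.28, adjusted p = 6.2e-10). Every granulin 3 library was more than an order of magnitude above every null library, and granulin 2 averaged 49.6 CPM against 3.48 CPM in granulin 1 and 2.45 CPM in wild type. Most other genes of zinc handling were not called. Of 20 metallothioneins and zinc transporters, 2 were higher, cdf-2 and the importer zipt-2.1 (1.12 ± 0.24), with a list median of -0.13. The high-zinc receptor hizr-1 had a log2 fold change of 0.73 ± 0.34 (adjusted p = 0.20), and the metallothionein mtl-1 one of -0.77 ± 0.64 (adjusted p = 0.50). The limma call was lost for zipt-2.1 on omission of null replicate 2 (adjusted p = 0.050). Without the 3 low-slope libraries, no limma call was left for zipt-2.1 (adjusted p = 0.059).

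**Figure D2:**
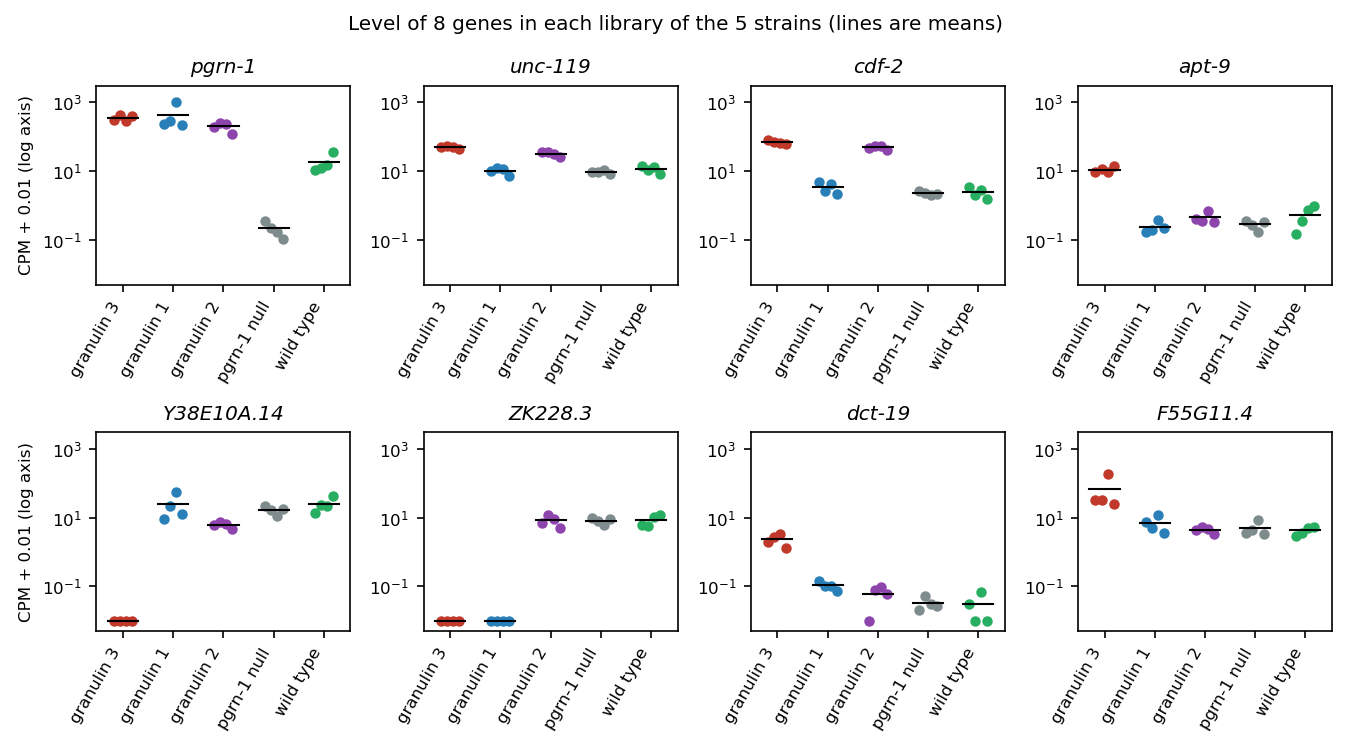
Level of 8 genes in each of the 20 libraries, in CPM plus 0.01 on a log axis, with group means as lines. The 4 granulin 3 libraries stand apart from the 4 null libraries for every gene shown, upwards for pgrn-1, unc-119, cdf-2, apt-9, dct-19 and F55G11.4 and downwards for Y38E10A.14 and ZK228.3, with F55G11.4 at 187 CPM in 1 library, and ZK228.3 is also at 0 in granulin 1.

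Neighbouring genes on 1 stretch of chromosome X were higher together. Windows of 250 kb took nuclear protein-coding genes with a mean of at least 1 CPM over all 20 libraries. Of 390 windows with at least 10 genes, 4 had a median log2 fold change over 0.8. Of these, 3 lay side by side at chromosome X, 11000001 to 11750000 (ce11), with medians of 0.85, 0.96 and 0.92. The fourth was on chromosome V, 19250001 to 19500000, with a median of 0.95 over 16 genes, and there granulin 1 over null also had a median of 0.79. The X segment was picked from these values, so what follows describes it and carries no test.

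The segment held 83 such genes. They had a median log2 fold change of 0.94 and quartiles of 0.48 and 1.56, and 78 of them were above 0. Of the 83 genes, 32 were called higher (38.6%) and none lower. Of all 10810 protein-coding genes of this level, 6.12% were higher and 1.94% lower. On the rest of X, 60 of 1436 were higher (4.18%) and 13 lower. The segment was chosen by these same values, so nothing is read from its share. By library, the median over the segment relative to the null mean was 1.11, 0.88, 0.71 and 1.29 in granulin 3, on the log2 scale, and all 16 other libraries lay between -0.15 and 0.43. Granulin 3 was thus above every library of the other 4 strains. The median was 1.01 against granulin 1, 0.96 against granulin 2 and 0.86 against wild type, and it was -0.04 for granulin 1 over null and -0.03 for granulin 2 over null. The windows on either side had medians of 0.07 and 0.33. Copy number was not measured, and the sources used here do not give the transgene's place in the genome.

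The genes of the segment do unlike things, and several appear again in the functional groups below. The largest difference was that of apt-9 (chromosome X, 11068527 to 11072047), which had 9.602, 11.3, 9.37 and 13.7 CPM in the granulin 3 libraries, against 0.345, 0.255, 0.159 and 0.328 CPM in the null libraries (log2 fold change 5.23 ± 0.44). All null libraries were far below all granulin 3 libraries, and the means of granulin 1, granulin 2 and wild type were 0.2279, 0.447 and 0.534 CPM. Further genes differed by amounts nearer to the segment median. The anion transporter sulp-7 had 21.5, 21.8, 24.3 and 21.5 CPM in the granulin 3 libraries, against 6.89, 6.64, 6.23 and 7.45 CPM in the null libraries (1.71 ± 0.25), the 4 granulin 3 values being close to each other and all above the null. The troponin I gene tni-1, part of the contractile apparatus of muscle, had 44.7, 40.3, 36.1 and 53.5 CPM in the granulin 3 libraries, against 14.8, 10.9, 9.03 and 9.27 CPM in the null libraries (2.000 ± 0.36), with no overlap. The acid sphingomyelinase asm-2, a lysosomal lipid hydrolase, had 54.8, 26.4, 49.9 and 51.7 CPM in the granulin 3 libraries, against 17.04, 8.87, 11.8 and 9.53 CPM in the null libraries (1.94 ± 0.34), and the lowest granulin 3 value, that of replicate 2, was still above the highest null value.

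Others of the segment were the claudin-like junction protein clc-1 (1.61 ± 0.33), the P-glycoprotein transporter pgp-3 (1.49 ± 0.31), the organic cation transporter homologue oct-2 (1.43 ± 0.27), the peroxin prx-12 (1.21 ± 0.28), the acetylcholine receptor subunit lev-8 (2.33 ± 0.41), the bicarbonate transporter homologue abts-2 (2.78 ± 0.39), the dosage compensation gene sdc-2 (1.29 ± 0.41) and the cuticle collagens col-179 (1.69 ± 0.47) and col-180 (1.97 ± 0.54), with log2 fold changes in brackets. The level of clc-1 was 27.5, 46.6, 35.9 and 20.4 CPM in the granulin 3 libraries, against 12.01, 9.02, 9.39 and 10.42 CPM in the null libraries. The highest null value thus lay below the lowest granulin 3 value, while granulin 1 averaged 1.08 CPM. Without the 3 low-slope libraries, the limma calls of clc-1 (adjusted p = 0.056) and sdc-2 (adjusted p = 0.11) ended. With 1 library dropped, sdc-2 stayed called only where that was granulin 3 replicate 2 (adjusted p otherwise 0.061 to 0.11). Another scaling or no filter on low values also ended its call (adjusted p = 0.053 and 0.097). Dropping null replicate 2 ended the calls of prx-12, col-179 and col-180 (adjusted p = 0.0845, 0.15 and 0.13). Both collagens were also lost without null replicate 3 or granulin 3 replicate 1 or 4 (adjusted p 0.056 to 0.080). The heterochronic gene lin-14, also in the segment, had a log2 fold change of 1.02 ± 0.48, and the hypoxia regulator vhl-1 one of 0.25 ± 0.30.

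**Figure D3:**
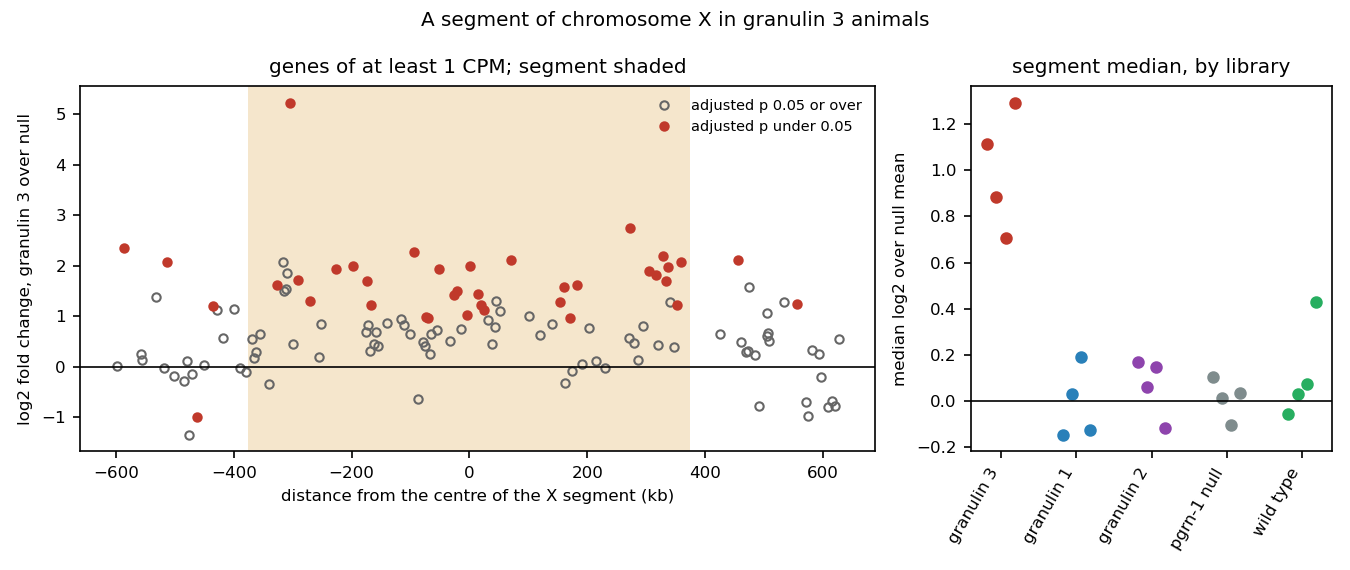
Left, log2 fold change of granulin 3 over null by distance in kb from the centre of the X segment (shaded). Genes are protein-coding with a mean of at least 1 CPM over the 20 libraries, filled where the adjusted p is under 0.05. Right, the median over the 83 genes of the segment in each library, as log2 over the null mean, with the 4 granulin 3 libraries between 0.71 and 1.29 and all others at 0.43 or under.

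A few genes were present in 1 strain and all but absent from the other. Y38E10A.14 (chromosome II, 12623110 to 12624533) had 0 reads in all 4 granulin 3 libraries, against 1979, 768, 557 and 1065 reads in the null, which is at least 501-fold lower with a floor of 3 reads per library. Granulin 1, granulin 2 and wild type averaged 24.8, 6.27 and 25.1 CPM, so that granulin 3 alone had none. The neighbours ZK228.3 (chromosome V, 18458241 to 18461250) and ZK228.4 (chromosome V, 18462787 to 18465426) were lost as well. ZK228.3 had 0 reads in every granulin 3 library, against 852, 366, 318 and 574 in the null (at least 247-fold lower), and ZK228.4 had 0, 1, 1 and 1 reads, against 3248, 1118, 727 and 1530, a null level 3697 times that of granulin 3 (95% exact interval 1264 to 17931, counting error only). Both were also at or near 0 in granulin 1, with means of 0 and 0.00833 CPM, and present in granulin 2 and wild type. These 3 genes had the smallest p-values of the comparison beside pgrn-1 and cdf-2 (adjusted p = 7.6e-13, 5.0e-12 and 2.1e-11 by limma, in the order ZK228.3, ZK228.4, Y38E10A.14). No function is annotated for them in the tables used here, and their DNA is not analysed here.

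The reverse pattern, at most 3 reads in each null library and at least 30 in each granulin 3 library, was found for 8 genes. They were dct-19, C01G10.4, C01G10.5, K10G4.5, F14F9.6, K01A6.8, gst-41 and the non-coding RNA T18D3.14, all picked by these counts, and 6 of the 8 were tested only because granulin 3 held them. The level of dct-19, named for its control by the FOXO factor DAF-16, was 1.89, 2.72, 3.41 and 1.33 CPM in the granulin 3 libraries, against 0.0111, 0.0425, 0.0199 and 0.0164 CPM in the null libraries, or 957 reads in all in granulin 3 and 5 in the null, a ratio of 114 (95% exact interval 48.8 to 353, counting error only). C01G10.4 had 1.41, 1.65, 2.05 and 0.829 CPM in the granulin 3 libraries, against 0.0111, 0.0213, 0 and 0.0164 CPM in the null libraries, and its ratio was 118.6 (40.4 to 577). Every granulin 3 library held both genes and no null library held more than 2 reads of dct-19 or 1 of C01G10.4. T18D3.14 (chromosome X, 12467581 to 12467936) lies next to cdf-2. It had 45, 72, 35 and 200 reads in granulin 3 and 0 in every null library, at least 15.6-fold higher, and granulin 2 also held it at 1.52 CPM. The glutathione transferase gst-41 had 46, 68, 36 and 116 reads in granulin 3, against 2, 0, 2 and 1 in the null.

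Genes that separated granulin 3 from all 4 other strains at once were few. By limma, 55 were higher and 4 were lower in each of the 4 comparisons, where 11.2%, 10.7%, 5.32% and 1.72% of genes were higher against the null, wild type, granulin 1 and granulin 2 taken one at a time. Of the 55, 26 were on chromosome X and 23 in the segment described above. The 4 comparisons share the granulin 3 libraries. Of the 55, 20 reached the minimum level for testing in fewer than 4 of the 16 other libraries (36.4%), so they entered the test only through granulin 3 and had to differ; the count of 55 supports nothing on its own.

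Outside X, several of the 55 were close neighbours. The degenerin-type sodium channel subunit gene acd-1 had 2.87, 3.05, 4.297 and 1.68 CPM in the granulin 3 libraries, against 0.178, 0.255, 0.0993 and 0.131 CPM in the null libraries (log2 fold change 3.94 ± 0.48, adjusted p = 3.7e-05), well apart in every library, and the adjoining channel gene delm-2 had a log2 fold change of 3.72 ± 0.48. C01G10.4, C01G10.5 and C01G10.17 adjoin on chromosome V (log2 fold change 5.17, 5.13 and 3.52 by limma), as do T26H5.10 and T26H5.4 (4.59 and 3.13) and the transthyretin-like genes ttr-28 and ttr-29 (3.71 and 3.06). F55G11.4, from a family of CUB-like genes that respond to infection, had 33.6, 33.6, 187 and 25.5 CPM in the granulin 3 libraries, against 3.56, 4.297, 8.77 and 3.43 CPM in the null libraries (log2 fold change 3.37 ± 0.50, adjusted p = 2.7e-04). Replicate 3 was the highest library in both strains, and the other 3 granulin 3 values lay above all null values. The tetraspanins tsp-4 and tsp-5 (3.17 and 3.138), the antibacterial factor abf-4 (2.59), and the lectins clec-17 and clec-33 (3.44 and 2.81) were further members. The transporter gene pgp-7 (3.03) lies on X, before the start of the segment. The 4 lower were Y38E10A.14, H25K10.1 (-3.99 ± 0.48), the carboxylesterase cest-1.1 (-3.800 ± 0.65) and Y54G2A.36 (-2.12 ± 0.33).

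Genes whose symbol is letters, a hyphen and a number, with or without a decimal part, were then ranked by fold change. They had at least 1 CPM and were called, and their strains did not overlap. Symbols of another form, such as Y38E10A.14 or cyp-25A1 (described below), were outside this ranking. Beside pgrn-1, dct-19, apt-9, cdf-2 and acd-1, the 12 highest held srlf-35 (4.98 ± 0.54), pqn-31 (4.21 ± 0.70), srlf-3 (3.89 ± 0.61) and 4 sperm genes described next, nspd-1, spe-11, cylc-1 and nspd-10 (3.83 ± 0.65), all called by limma. The 12 lowest of these lay between -2.37 and -1.53 on the log2 scale. They were the antimicrobial peptide gene cnc-2 (-2.37 ± 0.70), the non-coding RNA linc-4 (-2.21 ± 0.64), fbxa-83 (-1.55 ± 0.41), fbxa-27 (-1.53 ± 0.48) and 8 genes that appear below, spex-3, fbxa-181, ssp-37, kbp-4, rpl-41.1, sod-3, mrps-24 and rpl-22. No call by limma remained for cnc-2 on omission of granulin 3 replicates 1, 2 or 4 or of null replicates 1, 2 or 4 (adjusted p from 0.061 up to 0.076) and fbxa-27 on omission of granulin 3 replicates 1 or 4 or of null replicates 1, 2, 3 or 4 (adjusted p from 0.070 up to 0.12). The same held for linc-4 on omission of granulin 3 replicates 1 or 3 or of null replicates 2, 3 or 4 (adjusted p from 0.052 up to 0.097) and fbxa-83 on omission of granulin 3 replicates 1 or 4 (adjusted p from 0.061 up to 0.062). With the 3 libraries of low slope left out, limma no longer called cnc-2 (adjusted p = 0.18), fbxa-27 (adjusted p = 0.090) and linc-4 (adjusted p = 0.15). With scaling by totals alone, the call ended for fbxa-27 (adjusted p = 0.20) and fbxa-83 (adjusted p = 0.22). At least 1 further setting of filter, scaling or model ended that of cnc-2 and fbxa-27 (adjusted p from 0.05023 up to 0.083).

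Genes of sperm formed the list with the largest share of calls. Hermaphrodites of this species make sperm in the last larval stage, store it and then switch to oocytes, and the major sperm proteins move the crawling sperm and signal to oocytes. Of 52 tested major sperm proteins and small sperm families (58 listed), 36 were higher and 1 was lower, with a median log2 fold change of 2.44, beside 11.2% higher, 1.57% lower and a median of 0.07 over all genes. Their summed level was 334, 118, 169 and 675 CPM in the granulin 3 libraries, against 86.9, 20.2, 34.6 and 47.6 CPM in the null libraries. Granulin 3 replicate 2, the lowest of its strain, lay above null replicate 1, the highest of its own. In whole animals, more or fewer cells of a type and more or less RNA per cell cannot be told apart. Many of these genes are near-identical copies, so how reads were divided among them is uncertain. The number higher depended on single libraries, at 22 without granulin 3 replicate 1, 21 without granulin 3 replicate 4 and 14 without null replicate 2.

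Single sperm genes showed the same order. The nematode-specific peptide gene nspd-1 had 22.9, 24.9, 23.5 and 18.4 CPM in the granulin 3 libraries, against 4.34, 0.362, 0.734 and 1.49 CPM in the null libraries (log2 fold change 4.23 ± 0.83, adjusted p = 0.0020 by limma). The gene spe-11, whose sperm-supplied product the embryo needs, had 6.28, 7.44, 6.83 and 6.02 CPM in the granulin 3 libraries, against 0.9897, 0.191, 0.377 and 0.279 CPM in the null libraries (log2 fold change 4.02 ± 0.60, adjusted p = 2.7e-04). All granulin 3 values of nspd-1 and spe-11 lay above all null values. The sperm-meiosis gene smz-1 had 5.41, 2.22, 3.76 and 10.41 CPM in the granulin 3 libraries, against 1.06, 0.9999, 0.893 and 1.296 CPM in the null libraries (log2 fold change 2.12 ± 0.42, adjusted p = 0.0023). The major sperm protein msp-142 had 4.32, 0.931, 2.37 and 9.11 CPM in the granulin 3 libraries, against 0.756, 0.128, 0.397 and 0.344 CPM in the null libraries (log2 fold change 3.05 ± 0.70, adjusted p = 0.0061). Neither overlapped between the strains, although granulin 3 replicate 2 came close to null replicate 1 for msp-142. The 1 lower member was ssp-37 (-1.81 ± 0.59). Leaving out a library ended the limma call for ssp-37 on omission of granulin 3 replicates 1, 2 or 3 or of null replicates 1, 2, 3 or 4 (adjusted p from 0.064 up to 0.16). Omission of all 3 low-slope libraries ended the limma call of ssp-37 (adjusted p = 0.62). Scaling by total reads alone ended the call of ssp-37 (adjusted p = 0.056). Another choice of filter, scaling or model also lost ssp-37 (adjusted p from 0.052 up to 0.073).

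Most genes of sperm maturation moved in the same direction, while the summed levels of both lists below overlapped between the strains. Among 26 tested spe and fer genes, 12 were higher and none lower (median 1.39), including spe-54 (3.02 ± 0.49) and the kinase gene spe-8 (3.54 ± 0.67), which acts in sperm activation. Among 14 sperm kinases and phosphatases, 7 were higher (median 2.02). Counts for these 2 lists were 6 without granulin 3 replicate 4, 6 without null replicate 2 and 7 without null replicate 3, and 3 without granulin 3 replicate 1, 3 without granulin 3 replicate 4, 3 without null replicate 2 and 4 without null replicate 3. The sperm activation transporter snf-10 (2.88 ± 0.54) and the cylicin homologue cylc-1 (3.86 ± 0.78) were higher too. Against wild type, 50 of the 52 major sperm protein and small family genes were higher in granulin 3 (median 3.94); against granulin 1, 7 were (1.87), and against granulin 2 none was (median -1.41).

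Genes of the oocyte and of the switch to it were not called. None of 28 oocyte and eggshell genes passed the test by limma (1 at an unadjusted p under 0.05), with a median of -0.83. Their summed level was 18174, 3060.1, 5693 and 16789.8 CPM in the granulin 3 libraries, against 6798, 24913, 21392 and 20945 CPM in the null libraries. Low sums belonged to granulin 3 replicates 2 and 3 and null replicate 1, the 3 libraries of low length slope, and their part in the difference was not tested. The yolk receptor gene rme-2 had 752, 39.2, 72.1 and 1049 CPM in the granulin 3 libraries, against 225, 1612, 1381 and 1371 CPM in the null libraries (log2 fold change -2.07 ± 1.33, adjusted p = 0.37), which follows the same 3 libraries and overlaps widely. None of 6 vitellogenins was called, none at an unadjusted p under 0.05 (median -0.71), and the yolk gene vit-2 had 31140.2, 19429, 4529 and 25084 CPM in the granulin 3 libraries, against 11751, 26436, 13921 and 36330.5 CPM in the null libraries (log2 fold change -0.30 ± 1.03, adjusted p = 0.90), with the lowest value in granulin 3 replicate 3.

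Of 25 germline sex determination genes none was called and 1 passed unadjusted (median -0.43), among them fog-2, needed for hermaphrodite sperm, at -0.81 ± 0.33 (adjusted p = 0.12). Of 24 meiosis genes, 2 were lower, the axis component htp-1 (-0.84 ± 0.26) and the synapsis protein syp-2 (-0.95 ± 0.30). The limma call was lost for htp-1 on omission of granulin 3 replicates 1, 2 or 3 or of null replicates 1, 3 or 4 (adjusted p from 0.055 up to 0.11) and syp-2 on omission of granulin 3 replicates 1, 3 or 4 or of null replicates 1, 3 or 4 (adjusted p from 0.061 up to 0.15). Without the 3 low-slope libraries, no limma call was left for htp-1 (adjusted p = 0.19) and syp-2 (adjusted p = 0.076). When only total reads set the scale, limma did not call htp-1 (adjusted p = 0.63) and syp-2 (adjusted p = 0.54). A different filter, scaling or model also ended that of htp-1 and syp-2 (adjusted p from 0.059 up to 0.077).

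**Figure D4:**
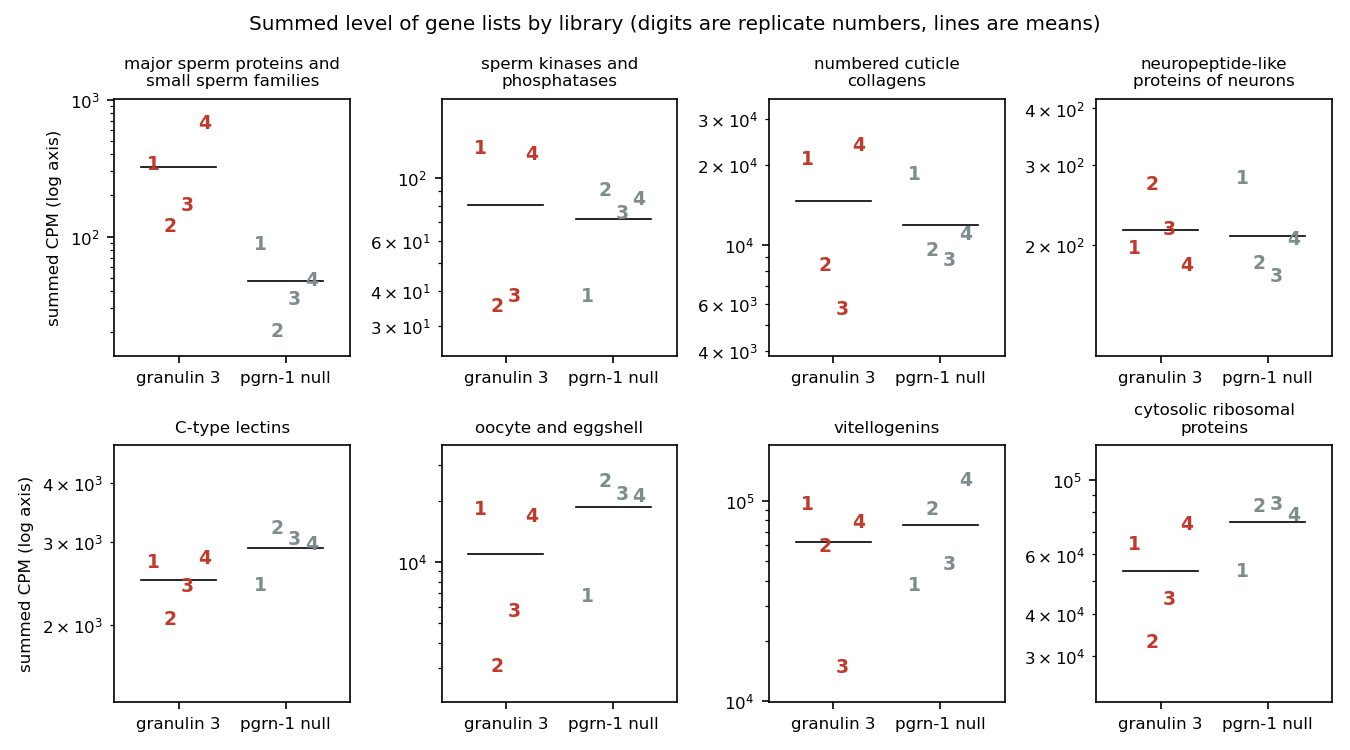
Summed level in CPM (log axis) of 8 gene lists in the granulin 3 and null libraries, with digits for replicate numbers and lines for means. The major sperm proteins and small sperm families are higher in all 4 granulin 3 libraries than in any null library. Sums of the sperm kinases and phosphatases overlap between the strains. The oocyte sums of granulin 3 replicates 2 and 3 and null replicate 1 lie below the other 5.

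Many cuticle collagens were higher. The cuticle is rebuilt at each moult from collagens that are switched on in waves by stage. Of 121 tested numbered collagens (156 listed), 30 were higher (24.8%) and 2 lower (1.65%), with a median of 0.92. Over all genes 11.2% were higher and 1.57% lower, and of genes under 1 CPM 22.8% were higher. The number higher was 15 without granulin 3 replicate 1, 13 without granulin 3 replicate 4, 8 without null replicate 2 and 16 without null replicate 3. The gene col-161 had 5.96, 3.12, 1.69 and 4.75 CPM in the granulin 3 libraries, against 0.934, 0.234, 0.298 and 0.804 CPM in the null libraries (log2 fold change 2.78 ± 0.48, adjusted p = 8.2e-04 by limma), without overlap and with the 2 low-slope libraries as the lowest of granulin 3. Further examples were col-14 (2.36 ± 0.44) and col-49 (2.87 ± 0.55), and the 2 lower were col-68 (-0.99 ± 0.29) and col-86 (-1.74 ± 0.55). Against wild type the list had a median of 0.09, with 25 higher and 4 lower, where 10.7% and 0.566% of all genes were. Against granulin 2 its median was -1.01, and that of granulin 2 over null was 1.73. No call by limma remained for col-68 on omission of granulin 3 replicates 1 or 3 or of null replicates 1, 2 or 3 (adjusted p from 0.053 up to 0.12) and col-86 on omission of granulin 3 replicates 1, 2 or 3 or of null replicates 1, 2, 3 or 4 (adjusted p from 0.050 up to 0.12). With the 3 libraries of low slope left out, limma no longer called col-68 (adjusted p = 0.14) and col-86 (adjusted p = 0.29). With scaling by totals alone, the call ended for col-68 (adjusted p = 0.46) and col-86 (adjusted p = 0.095). At least 1 further setting of filter, scaling or model ended that of col-68 and col-86 (adjusted p from 0.077 up to 0.084).

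Other families of the cuticle and epidermis were read next. Of 14 collagens named for blister, dumpy and roller phenotypes, 3 were higher, bli-1 (2.32 ± 0.55), bli-2 (2.54 ± 0.61) and dpy-4 (2.21 ± 0.71), and none of 6 furrow collagens was, with or without adjustment. Cuticlins gave 4 higher of 31, with cut-4 (1.64 ± 0.42) and cutl-16 (1.28 ± 0.34). Hedgehog-related genes gave 4 higher and 1 lower of 64. Astacin proteases gave 4 higher of 30, with nas-25 (2.73 ± 0.47) and nas-38 (2.21 ± 0.43). The number of cuticlins higher was 2 without granulin 3 replicate 2, 2 without granulin 3 replicate 3, 0 without null replicate 2, 0 without null replicate 3, 2 without null replicate 4, 1 without the 3 low-slope libraries and 2 with scaling by totals, and that of hedgehog-related genes 2 without null replicate 2 and 8 with scaling by totals. Of 27 genes of moulting and stage timing only lin-29, which drives the larva-to-adult switch of the epidermis, was higher (1.27 ± 0.30). The adult collagen col-19 had a log2 fold change of 0.29 ± 0.63 (adjusted p = 0.82), and the moult genes nhr-23 and mlt-10 had -0.47 ± 0.89 and -1.11 ± 0.80 (adjusted p = 0.80 and 0.43). Leaving out a library ended the limma call for bli-2 on omission of null replicate 2 (adjusted p = 0.065) and dpy-4 on omission of granulin 3 replicates 1, 2 or 4 or of null replicates 1, 2 or 3 (adjusted p from 0.071 up to 0.16). So it was with cut-4 on omission of null replicates 2 or 3 (adjusted p from 0.059 up to 0.10) and cutl-16 on omission of granulin 3 replicate 2 or of null replicates 2 or 3 (adjusted p from 0.063 up to 0.067). This applied also to lin-29 on omission of null replicate 2 (adjusted p = 0.10). Omission of all 3 low-slope libraries ended the limma call of cutl-16 (adjusted p = 0.25). Another choice of filter, scaling or model also lost dpy-4 (adjusted p from 0.0501 up to 0.088).

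Neuropeptides were read beside the machinery that releases them. Of 53 neuronal neuropeptide-like genes 13 were higher (24.5%, median 0.85) and of 30 FMRFamide-like genes 6 were (20%, median 0.87), with none lower. The share higher over all genes was 11.2%, and that of genes under 1 CPM was 22.8%. The neuropeptide gene nlp-16 had 3.92, 2.98, 2.36 and 3.999 CPM in the granulin 3 libraries, against 0.222, 0.489, 0.457 and 0.443 CPM in the null libraries (log2 fold change 2.98 ± 0.34, adjusted p = 1.6e-05 by limma). The neuropeptide gene flp-1, which acts on locomotion, had 3.83, 2.97, 1.94 and 4.899 CPM in the granulin 3 libraries, against 0.734, 0.362, 0.397 and 0.492 CPM in the null libraries (log2 fold change 2.68 ± 0.47, adjusted p = 8.4e-04). Both were apart in every library. Their counts were 8 without granulin 3 replicate 1, 3 without null replicate 2, 7 without null replicate 3 and 7 without the 3 low-slope libraries for the first list, and 2 without null replicate 2 for the second. None of 15 dense core vesicle genes (1 at an unadjusted p under 0.05) and 1 of 24 synaptic vesicle genes, the GABA transporter unc-47 (1.92 ± 0.48), were higher, and the difference between the lists was not tested. Without the 3 low-slope libraries, no limma call was left for unc-47 (adjusted p = 0.054).

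Insulin-like peptides act on the receptor DAF-2, upstream of DAF-16. Of 21 tested (39 listed), 7 were higher (33.3%, beside 11.2% of all genes and 22.8% of genes under 1 CPM) and none lower (median 0.89). The gene ins-37 had 1.41, 0.488, 0.722 and 1.45 CPM in the granulin 3 libraries, against 0.133, 0.0851, 0.0993 and 0.08202 CPM in the null libraries (log2 fold change 2.91 ± 0.58, adjusted p = 0.0023 by limma), without overlap, and ins-26 (2.95 ± 0.41) and ins-6 (2.39 ± 0.49) were higher too, all at low levels. Of 17 genes from the insulin receptor to DAF-16, none was called, with or without adjustment (median -0.20). Among 42 muscle genes, the integrin pat-2 (1.38 ± 0.34) and the X segment gene tni-1 were higher, and the myosin unc-54 had a log2 fold change of 1.002 ± 0.81 (adjusted p = 0.49). The limma call was lost for pat-2 on omission of null replicate 2 (adjusted p = 0.063).

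C-type lectins and lysozymes, families that answer microbes, were read next. Of 114 tested C-type lectins (240 listed) 28 were higher (24.6%) and none lower (median 0.59). Over all genes 11.2% were higher, and 22.8% of genes under 1 CPM were. The lectin clec-52 had 20.8, 25.4, 13.5 and 23.9 CPM in the granulin 3 libraries, against 4.55, 4.36, 4.705 and 3.31 CPM in the null libraries (log2 fold change 2.27 ± 0.27, adjusted p = 2.9e-05 by limma). Other examples were clec-245 (3.135 ± 0.35) and clec-72 (2.66 ± 0.43). The granulin 3 values of clec-52 were all well above its null values. Of 33 lysozymes and saposin-like genes, 3 were higher (9.09%, median 0.04), below the 11.2% of all genes. They were ilys-3, ilys-2 (1.84 ± 0.35) and lys-7. The intestinal lysozyme lys-7, a known target of DAF-16, had 111, 65.8, 146 and 113 CPM in the granulin 3 libraries, against 11.9, 27.95, 11.9 and 8.300 CPM in the null libraries (log2 fold change 2.96 ± 0.67, adjusted p = 0.0053), without overlap. The invertebrate lysozyme ilys-3 had 4.13, 7.03, 2.64 and 3.07 CPM in the granulin 3 libraries, against 0.7895, 0.681, 0.318 and 0.459 CPM in the null libraries (log2 fold change 2.82 ± 0.52, adjusted p = 0.0012), likewise apart.

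Families that answer viruses and microsporidia, and their ubiquitin adaptors, were also read. Of 23 pals genes, 6 were higher (26.1%, median 0.77), where 11.2% of all genes and 22.8% of genes under 1 CPM were. They included pals-32 (3.40 ± 0.66), pals-18 (1.68 ± 0.38) and pals-33 (2.18 ± 0.53). The number of pals genes higher was 1 without null replicate 2 and 1 without the 3 low-slope libraries. F-box genes gave 25 higher and 6 lower of 207, near the background. MATH genes gave 12 higher (20.3%) and 1 lower of 59. The number of higher F-box genes was 16 without granulin 3 replicate 1, 13 without null replicate 2, 13 without null replicate 3, 15 without null replicate 4 and 13 without the 3 low-slope libraries, and that of higher MATH genes was 7 without null replicate 2 and 7 without the 3 low-slope libraries. The number of lower F-box genes was 2 without the 3 low-slope libraries and 0 with scaling by totals. The F-box gene fbxa-192 had 9.56, 6.201, 7.48 and 1.96 CPM in the granulin 3 libraries, against 0.7895, 0.681, 0.536 and 0.6397 CPM in the null libraries (log2 fold change 2.998 ± 0.38, adjusted p = 5.9e-05). The MATH gene bath-24 had 3.81, 5.28, 5.38 and 4.59 CPM in the granulin 3 libraries, against 1.05, 0.808, 0.635 and 0.853 CPM in the null libraries (log2 fold change 2.48 ± 0.30, adjusted p = 3.5e-05). The null had the lowest mean of the 5 strains for both, and wild type averaged 12.1 CPM of fbxa-192 and 3.72 CPM of bath-24. Lower were fbxa-181 (-1.82 ± 0.37), fbxa-145 (-1.401 ± 0.37) and bath-27 (-1.20 ± 0.30). No call by limma remained for pals-18 on omission of null replicate 2 (adjusted p = 0.054) and pals-33 on omission of null replicate 2 (adjusted p = 0.087). It was lost too for fbxa-145 on omission of granulin 3 replicate 1 (adjusted p = 0.072) and bath-27 on omission of granulin 3 replicate 1 (adjusted p = 0.054). With the 3 libraries of low slope left out, limma no longer called pals-18 (adjusted p = 0.066), pals-33 (adjusted p = 0.080) and fbxa-145 (adjusted p = 0.056). Scaling by total reads alone ended the call of fbxa-181 (adjusted p = 0.051), fbxa-145 (adjusted p = 0.20) and bath-27 (adjusted p = 0.29).

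Detoxification families held members that changed in both directions. UDP-glucuronosyltransferases gave 10 higher of 62 (16.1%, beside 11.2% of all genes, median 0.47). Their number was 6 without granulin 3 replicate 1, 4 without null replicate 2 and 6 without null replicate 3. The gene ugt-8 had 1.83, 1.27, 0.571 and 3.98 CPM in the granulin 3 libraries, against 0.1001, 0.106, 0.0596 and 0.148 CPM in the null libraries (log2 fold change 3.599 ± 0.47, adjusted p = 8.3e-05 by limma), low in the null throughout. Cytochrome P450s gave 4 higher and 1 lower of 59. The lower one, cyp-25A1, had 4.55, 7.14, 8.63 and 3.07 CPM in the granulin 3 libraries, against 34.3, 21.8, 22.7 and 26.8 CPM in the null libraries (log2 fold change -2.25 ± 0.44, adjusted p = 0.0021). Every granulin 3 library was below every null library. Glutathione transferases gave 4 higher and 1 lower of 43, with gst-42 of the X segment (1.22 ± 0.37) among the higher and gst-7 (-1.44 ± 0.46) the lower. Higher P450s numbered 2 without granulin 3 replicate 2, 1 without null replicate 2, 1 without null replicate 3, 2 without null replicate 4, 2 without the 3 low-slope libraries and 2 with scaling by totals, and higher glutathione transferases 2 without granulin 3 replicate 4, 1 without null replicate 2, 2 without null replicate 3 and 2 without null replicate 4. Transthyretin-like genes gave 10 higher of 51 (median 0.09), with 6 without null replicate 2, 5 without null replicate 3 and 6 without the 3 low-slope libraries. Leaving out a library ended the limma call for gst-42 on omission of granulin 3 replicates 1, 3 or 4 or of null replicates 2, 3 or 4 (adjusted p from 0.064 up to 0.23) and gst-7 on omission of granulin 3 replicates 1, 2 or 3 or of null replicates 1, 2, 3 or 4 (adjusted p from 0.053 up to 0.15). Omission of all 3 low-slope libraries ended the limma call of gst-42 (adjusted p = 0.13) and gst-7 (adjusted p = 0.24). When only total reads set the scale, limma did not call gst-7 (adjusted p = 0.23). A different filter, scaling or model also ended that of gst-42 and gst-7 (adjusted p from 0.051 up to 0.083).

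The mitochondrial superoxide dismutases sod-2 (-1.08 ± 0.32) and sod-3 were the 2 lower of 8 dismutases and catalases. The DAF-16 target sod-3 had 0.472, 0.496, 0.409 and 0.519 CPM in the granulin 3 libraries, against 2.15, 1.45, 1.05 and 1.69 CPM in the null libraries (log2 fold change -1.64 ± 0.46, adjusted p = 0.023 by limma), without overlap. Of 35 acyl-CoA synthetases and dehydrogenases 4 were higher, with acs-15 (3.05 ± 0.64) and acdh-8 (2.98 ± 0.65), and acdh-10 (-1.39 ± 0.44) was lower. Of 16 desaturases and elongases, elo-8 was higher (1.75 ± 0.45). The limma call was lost for sod-2 on omission of granulin 3 replicates 1 or 3 or of null replicates 1, 3 or 4 (adjusted p from 0.050 up to 0.10) and sod-3 on omission of granulin 3 replicates 1 or 3 or of null replicates 1, 2 or 4 (adjusted p from 0.054 up to 0.068). The same held for acdh-10 on omission of granulin 3 replicates 2 or 3 or of null replicates 1, 2, 3 or 4 (adjusted p from 0.054 up to 0.15) and elo-8 on omission of granulin 3 replicate 4 or of null replicate 2 (adjusted p from 0.057 up to 0.069). Without the 3 low-slope libraries, no limma call was left for sod-2 (adjusted p = 0.15), sod-3 (adjusted p = 0.20) and acdh-10 (adjusted p = 0.51). With scaling by totals alone, the call ended for sod-2 (adjusted p = 0.44), sod-3 (adjusted p = 0.12) and acdh-10 (adjusted p = 0.13). At least 1 further setting of filter, scaling or model ended that of sod-2, sod-3 and acdh-10 (adjusted p from 0.052 up to 0.062).

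Genes of the lysosome, the compartment in which granulins arise, were for the most part not called. None of 11 aspartyl proteases passed the test (median -0.35), nor any of 21 subunits of the vacuolar proton pump (0.05), 32 membrane and trafficking genes (-0.16) or 28 autophagy genes (-0.39). At an unadjusted p under 0.05, 2 members of each of these 4 lists passed. The aspartyl protease asp-4 had 141, 155, 141 and 227.9 CPM in the granulin 3 libraries, against 504, 355, 299.7 and 404 CPM in the null libraries (log2 fold change -1.24 ± 0.43, adjusted p = 0.062 by limma), so that its groups did not overlap and its test just missed the threshold. The master regulator of lysosomal genes, hlh-30, had 78.2, 44.5, 17.99 and 51.7 CPM in the granulin 3 libraries, against 24.8, 38.6, 31.3 and 35.1 CPM in the null libraries (log2 fold change 0.41 ± 0.45, adjusted p = 0.63), spanning the null range on both sides. The proteases asp-1, asp-3 and cpl-1 had log2 fold changes of -0.96 ± 0.63, -0.64 ± 0.56 and -0.71 ± 0.56, the membrane protein lmp-1 one of -0.74 ± 0.44 and the glucocerebrosidase gba-3 one of 0.94 ± 0.43 (adjusted p = 0.38, 0.53, 0.48, 0.32 and 0.18).

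The lysosomal genes that were called were of other kinds. Of 40 lipases, nucleases and glycosidases, 3 were higher, asm-2 of the X segment and the sulfatases sul-2 (1.58 ± 0.42) and sul-3 (1.24 ± 0.36), and 1 was lower, the longevity-linked lipase lipl-4 (-2.54 ± 0.62, means of 0.0241 CPM in granulin 3 and 0.372 CPM in the null). The cathepsin B homologue cpr-8 was the 1 higher of 10 cysteine proteases (0.78 ± 0.25). Of 20 HLH-30 and lysosomal TOR regulators, 2 were lower, the Ragulator subunit lmtr-2 (-1.12 ± 0.31) and mxl-1 (-1.04 ± 0.32). No call by limma remained for sul-2 on omission of granulin 3 replicate 4 or of null replicates 2 or 3 (adjusted p from 0.056 up to 0.064) and sul-3 on omission of granulin 3 replicates 1 or 4 or of null replicates 2, 3 or 4 (adjusted p from 0.058 up to 0.22). So it was with cpr-8 on omission of granulin 3 replicates 1, 2, 3 or 4 or of null replicates 1, 2, 3 or 4 (adjusted p from 0.052 up to 0.25) and lmtr-2 on omission of granulin 3 replicate 1 or of null replicate 1 (adjusted p from 0.059 up to 0.081). This applied also to mxl-1 on omission of granulin 3 replicates 1, 3 or 4 or of null replicates 1, 3 or 4 (adjusted p from 0.057 up to 0.14). With the 3 libraries of low slope left out, limma no longer called lipl-4 (adjusted p = 0.085), cpr-8 (adjusted p = 0.17) and lmtr-2 (adjusted p = 0.11). Scaling by total reads alone ended the call of cpr-8 (adjusted p = 0.10), lmtr-2 (adjusted p = 0.35) and mxl-1 (adjusted p = 0.44). Another choice of filter, scaling or model also lost sul-3, cpr-8 and mxl-1 (adjusted p from 0.051 up to 0.12).

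Few genes of the ribosome and none of the proteasome passed the test. Of 80 cytosolic ribosomal protein genes, 2 were lower, rpl-41.1 (-1.65 ± 0.48) and rpl-22, none was higher and the median was -0.68. The gene rpl-22 had 188.4, 255, 253 and 493 CPM in the granulin 3 libraries, against 906, 738, 844 and 846 CPM in the null libraries (log2 fold change -1.58 ± 0.49, adjusted p = 0.040 by limma), with all granulin 3 values below all null values. The number lower was 0 without granulin 3 replicate 1, 1 without granulin 3 replicate 2, 0 without granulin 3 replicate 3, 11 without granulin 3 replicate 4, 0 without null replicate 1, 0 without null replicate 2, 0 without null replicate 3, 1 without null replicate 4, 0 without the 3 low-slope libraries and 0 with scaling by totals, which shifts the median of all genes to 0.43. None of 33 proteasome genes was called, and 7 passed an unadjusted p under 0.05. All 33 had a fold change below 0 (median -0.52), and 3 were called without granulin 3 replicate 4. The gene rpt-6 had -1.52 ± 0.59 (adjusted p = 0.11 by limma). Over all genes of 100 CPM and over the median was -0.34, so values below 0 are common at high levels. The kinetochore gene kbp-4 (-1.68 ± 0.42), the mitochondrial ribosomal gene mrps-24 (-1.604 ± 0.48), the inner membrane translocase timm-23 (-1.403 ± 0.32) and the nuclease crn-5 (-1.21 ± 0.30) were lower. The gene spex-3 had 7.697, 17.91, 16.7 and 11.6 CPM in the granulin 3 libraries, against 63.1, 38.1, 53.5 and 61.2 CPM in the null libraries (log2 fold change -2.05 ± 0.65, adjusted p = 0.044), again without overlap. Leaving out a library ended the limma call for rpl-41.1 on omission of granulin 3 replicates 1 or 3 or of null replicates 1, 2 or 3 (adjusted p from 0.051 up to 0.10) and rpl-22 on omission of granulin 3 replicates 1, 2 or 3 or of null replicates 1, 2, 3 or 4 (adjusted p from 0.059 up to 0.13). It was lost too for mrps-24 on omission of granulin 3 replicates 1 or 4 or of null replicates 1, 2, 3 or 4 (adjusted p from 0.051 up to 0.11) and spex-3 on omission of granulin 3 replicates 1, 2, 3 or 4 or of null replicates 1, 2, 3 or 4 (adjusted p from 0.052 up to 0.14). Omission of all 3 low-slope libraries ended the limma call of rpl-41.1 (adjusted p = 0.16), rpl-22 (adjusted p = 0.24), kbp-4 (adjusted p = 0.05005), mrps-24 (adjusted p = 0.11), timm-23 (adjusted p = 0.20), crn-5 (adjusted p = 0.081) and spex-3 (adjusted p = 0.11). When only total reads set the scale, limma did not call rpl-41.1 (adjusted p = 0.15), rpl-22 (adjusted p = 0.16), kbp-4 (adjusted p = 0.12), mrps-24 (adjusted p = 0.19), timm-23 (adjusted p = 0.14), crn-5 (adjusted p = 0.28) and spex-3 (adjusted p = 0.10). A different filter, scaling or model also ended that of rpl-22, mrps-24 and spex-3 (adjusted p from 0.05044 up to 0.075).

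Stress chaperones were not called. None of 13 cytosolic heat shock genes (median -0.40) and none of 23 endoplasmic reticulum genes (median -0.05) passed, with 1 and 4 members at an unadjusted p under 0.05, and hsp-1 had a log2 fold change of -1.74 ± 0.90 (adjusted p = 0.25 by limma). Of 27 genes of apoptosis and engulfment, a process to which progranulin has been linked in this species, 2 were lower, crn-5 and the engulfment receptor psr-1 (-0.91 ± 0.28), and 1 was higher. Of 183 nuclear hormone receptors 7 were higher and 1 lower, below the background share for higher genes (4 without granulin 3 replicate 4 and 2 without null replicate 2), and of 45 homeobox genes 3 were higher, led by ceh-37 (1.63 ± 0.33), but 1 without the 3 low-slope libraries. Of 34 histone genes 2 were lower, his-58 (-2.34 ± 0.68) and his-32 (-1.71 ± 0.56). The limma call was lost for psr-1 on omission of granulin 3 replicates 1, 2 or 3 or of null replicates 1, 3 or 4 (adjusted p from 0.059 up to 0.11) and his-58 on omission of granulin 3 replicates 1, 2 or 3 or of null replicates 2, 3 or 4 (adjusted p from 0.051 up to 0.097). The same held for his-32 on omission of granulin 3 replicates 2 or 3 or of null replicates 2, 3 or 4 (adjusted p from 0.087 up to 0.17). Without the 3 low-slope libraries, no limma call was left for psr-1 (adjusted p = 0.19), his-58 (adjusted p = 0.14) and his-32 (adjusted p = 0.35). With scaling by totals alone, the call ended for psr-1 (adjusted p = 0.56) and his-32 (adjusted p = 0.059). At least 1 further setting of filter, scaling or model ended that of his-32 (adjusted p from 0.058 up to 0.068).

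**Figure D5:**
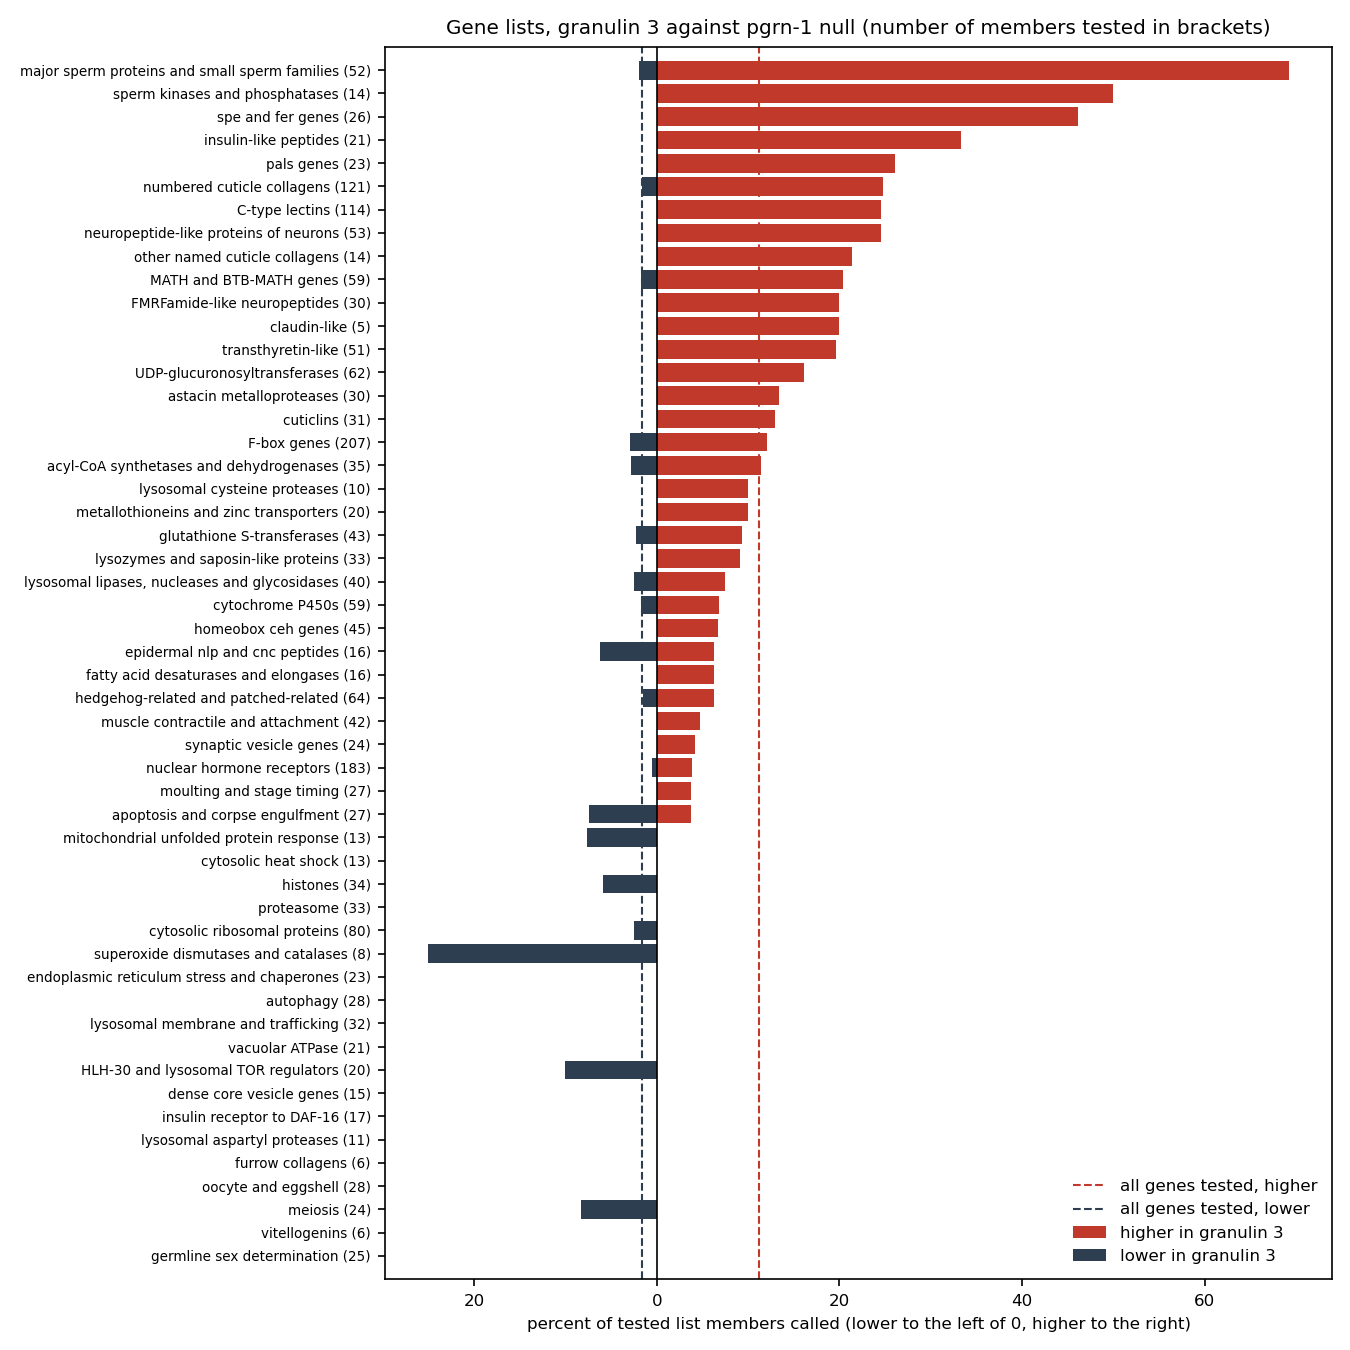
Percent of tested members of 52 gene lists called higher (right of 0) or lower (left of 0) in granulin 3 against the null, with the number tested in brackets and dashed lines for all genes tested (11.2% higher and 1.57% lower). The 3 sperm lists stand at the top with 46.2% to 69.2% higher, and 19 lists have no member called higher.

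Marker lists gave the composition of the animals as far as the RNA shows it. Of 9 sperm markers 6 were higher, with summed levels of 36.6 to 65.3 CPM in granulin 3 and 1.98 to 9.55 CPM in the null, ranges that did not meet, and the number higher was 3 without granulin 3 replicate 4 and 3 without null replicate 2. Of 8 oocyte markers none was called, and the sums were 989.6 to 8787 CPM in granulin 3 and 2691 to 13241 CPM in the null. None of 11 intestine, 7 body wall muscle or 7 pharynx markers was called (1, 0 and 2 at an unadjusted p under 0.05), with sums for intestine of 10924 to 70793 CPM in granulin 3 and 27107 to 80312 CPM in the null. Neuronal markers gave 1 higher of 11 (137 to 205 CPM in granulin 3 and 107.0 to 143 CPM in the null), epidermis and seam 2 of 9 (455 to 1343 CPM in granulin 3 and 561 to 932 CPM in the null), and early embryo 1 higher and 1 lower of 10 (107.0 to 176 CPM in granulin 3 and 176 to 199 CPM in the null). Adult stage markers gave 1 higher of 10 (15101 to 96933 CPM in granulin 3 and 38709 to 126490 CPM in the null), and somatic gonad markers 1 higher of 7 (157 to 211 CPM in granulin 3 and 162 to 179.4 CPM in the null). The adult stage sums lay close to those of the vitellogenins, 14778 to 95818 CPM in granulin 3 and 37840 to 126038 CPM in the null. The intestine sums ranked these libraries in the same order as the vitellogenin sums. Both ranges thus largely repeat the vitellogenin values. Without the 3 low-slope libraries, the number higher was 1 for epidermis and seam, 3 for adult stage and 0 for early embryo and somatic gonad. Defining markers of each tissue were detected in both strains, and the part of tissue make-up in the other lists was not tested.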

How the data were processed

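Total RNA of day 1 adults was extracted with Qiagen miRNeasy and sequenced from Illumina TruSeq Stranded Total RNA libraries, per the labels' protocols. The authors deposited log2 CPM values per gene, with a prior count of 2, made with STAR, HTSeq, edgeR and limma on ce11, per the submitters' processing notes, which are listed without roles or order. Whole reads were recovered from the deposited log2 values within 0.01 reads for at least 99.99% of values. Of 46778 identifiers, 46603 were named from the Ensembl 115 annotation.

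Reads were turned back into log2 CPM with a prior count of 2 and TMM scaling computed here. Genes with at least 0.177 CPM in 4 or more libraries, and a total of 15 reads or more, were kept. They were tested with limma 3.58.1 in R 4.3.3 (trend, robust), a fit of 1 mean per strain over all 20 libraries with 15 residual degrees of freedom, so that all strains share 1 estimate of the spread. Among the other strains, granulin 1 replicate 3 had a length slope of -0.89. Ribosomal RNA took 44.8% of reads in wild type replicate 4 and 52.7% in granulin 2 replicate 3. These libraries enter that estimate and the comparisons with their strains. Among the alternatives, only the fit of the 2 strains alone left them out, with 2432 calls for granulin 3 against the null. Benjamini-Hochberg adjustment ran over the 15737 genes tested, with a threshold of 0.05. The fit was tested on simulated data. Ratios of reads carry exact 95% intervals that cover counting error only. Windows of 250 kb held nuclear protein-coding genes with a mean of at least 1 CPM over all 20 libraries. Medians and counts over gene lists carry no test. Named by rule were pgrn-1 and unc-119, the 5 genes with the smallest p, and the 12 highest and 12 lowest called genes of a ranking. The ranking took symbols of letters, a hyphen and a number, with or without a decimal part. It left out clone names and forms such as cyp-25A1. Ranked genes had at least 1 CPM and strains that do not overlap. Up to 3 called members per list in the main direction and 2 in the other were named, or 2 by p where none was called. A set of lysosomal and stage genes was named too, of which asp-10 was not matched. Genes of the X segment, genes confined to 1 strain and neighbours were named after their values were seen. The comparison's members and lists were chosen with earlier results of these data known. Alternatives are given at the end.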

Additional observations from a re-analysis of the deposited data

Results flagged for a closer look

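Of 78 groups of 4 libraries examined, 7 held a library far from the other 3, where chance gives about 1 in 20. In granulin 3, replicate 4 was low for unc-119 at 43.1 CPM and high for asp-4 at 227.9 CPM, and replicate 3 was high for sulp-7 at 24.3 CPM and for F55G11.4 at 186.7 CPM. In the null, replicate 3 was high for F55G11.4 at 8.77 CPM. The ribosomal RNA share of granulin 3 replicate 2 was 8.39%, and the length slope of null replicate 1 was -0.34.

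For many genes the change over the null in granulin 3 differed from that in another granulin strain, by the limma test of the difference, given here as log2 differences. Both changes use the same null libraries. Against granulin 1, the difference was 2.31 for unc-119, 4.37 for cdf-2, -9.40 for Y38E10A.14 and 5.47 for apt-9. In the X segment, whose genes (apt-9 too) were picked by their granulin 3 values, it was 1.20 for asm-2, 1.32 for sulp-7, 1.36 for tni-1 and 4.87 for clc-1. Among genes gained it was 4.18 for dct-19, 3.94 for C01G10.4, 2.93 for F55G11.4 and 3.69 for acd-1. Of these, dct-19 and C01G10.4 were tested only because granulin 3 held them, so they had to differ. F55G11.4 and acd-1 were named from the genes higher than in every other strain, so nothing is read from their differences. For members of the functional groups it was 2.57 for spe-11, 1.99 for col-161, 2.79 for nlp-16, 2.28 for flp-1 and 2.70 for ins-37. It was 2.90 for clec-52, 2.2002 for ilys-3, 2.98 for lys-7, 3.1997 for ugt-8 and -2.42 for cyp-25A1. These members, cdf-2 and Y38E10A.14 were named by their values in granulin 3 against the null, and only differences that passed are listed. Nothing is read from them either. Of all genes tested, 5.32% were higher in granulin 3 than in granulin 1.

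Against granulin 2, the difference was -8.12 for ZK228.3, -9.01 for ZK228.4 and -7.75 for Y38E10A.14. It was 4.58 for apt-9, 2.26 for asm-2, 1.69 for sulp-7 and 2.099 for clc-1. It was 4.99 for dct-19, 2.59 for C01G10.4, 3.49 for F55G11.4 and 2.87 for acd-1, and -1.85 for smz-1 and -2.64 for sod-3. The limits given above for the X segment genes, dct-19, C01G10.4, F55G11.4 and acd-1 hold here too. The genes ZK228.3, ZK228.4, Y38E10A.14, smz-1 and sod-3 were likewise named by their values in granulin 3 against the null. Of all genes tested, 1.72% were higher in granulin 3 than in granulin 2.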

How the results depend on the processing

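Under 18 alternatives, no called gene among those examined for the text changed direction, 100 kept their call throughout and 60 lost it under at least 1. Total calls were 5572 with library weights and 3656 with the length slope as a covariate, against 2006, and 1114 to 1876 with 1 library left out. Genes higher numbered 3707 with library weights and 958 to 1714 with 1 library left out. Genes lower, 247 in the analysis as reported, numbered 35 with scaling by totals alone, 116 with protein-coding genes only, 1865 with library weights, 447 with the 2 strains fitted alone, 1236 with the length covariate, 38 without the 3 libraries of low length slope, and 63 to 262 with 1 library left out; the cause was not tested. The median of the X segment was 1.31 with scaling by totals, which moves the median of all genes to 0.43, against 0.94; its alternatives were chosen after seeing the data. No paired analysis was possible because granulin 3 and the null share no letter or other label that ties their libraries, and replicate numbers follow accession order. Letters that granulin 3 shares with granulin 1 and wild type were not used as a block in those comparisons. Calls of genes under 1 CPM rest on few reads.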
